A study of Homo sapiens with 3 samples.

Results

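The regions described here are promoters of noncoding genes that carried a MAX peak and no BMAL1 peak in MDA-MB-231 cells. They were chosen by the peak lists themselves: a listed MAX peak was taken when it shared no base with a listed BMAL1 peak, lay with at least 1 bp within 300 bp of a transcription start site (TSS) of a gene typed lncRNA, and had no base within 300 bp of a TSS of a protein-coding gene. Of 13650 listed MAX peaks, 687 met this rule (5.03%, Wilson 95% interval 4.68% to 5.41%), which is 5.28% of the 13013 MAX peaks that shared no base with BMAL1. The presence of MAX and the absence of BMAL1 at these promoters are therefore the choice and not a result.

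MDA-MB-231 cells, an established line from a human breast cancer of the triple-negative type, were used. Chromatin from cells cross-linked for 10 min in 1% formaldehyde was precipitated with 4 µg of antibody against BMAL1 or against MAX, and input chromatin served both as control. There was 1 library per antibody, of 11545865 MAX tags and 13866783 BMAL1 tags, and 1 input of 29308882 tags. Without replicates no test was run: intervals are 95% intervals that cover counting error within these libraries only, and the peaks of a library are not replicates of a condition.

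MAX is a small basic helix-loop-helix protein that binds DNA as a dimer, with itself, with MYC or with repressive partners such as MNT, and the dimers prefer the palindromic E-box CACGTG. BMAL1, the clock activator, binds the same palindrome together with CLOCK. Long noncoding RNAs (lncRNAs) are transcribed and often spliced like messenger RNAs but encode no known protein, and many start within a gene body on the other strand or head to head with a coding gene. A part of them serves as carriers: small nucleolar RNAs (snoRNAs), which guide the modification of ribosomal RNA, and microRNAs (miRNAs), which silence messenger RNAs, are cut out of the introns or exons of such host genes.

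The 10 most enriched of these promoters that held CACGTG within 100 bp of the MAX summit are shown first. In them the factor's preferred letters lay from 2 bp (ENSG00000237301) to 93 bp (LINC-PINT) from the summit of a strong peak. Each is given as 61 bases of hg19 in the direction of the lncRNA, with CACGTG in capitals.
SNHG15, chr7:45025990-45026050, minus strand: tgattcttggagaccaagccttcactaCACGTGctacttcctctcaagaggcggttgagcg
EBLN3P, chr9:37079527-37079587, plus strand: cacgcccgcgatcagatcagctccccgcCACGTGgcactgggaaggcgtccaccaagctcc
ENSG00000288885, chr21:46975740-46975800, plus strand: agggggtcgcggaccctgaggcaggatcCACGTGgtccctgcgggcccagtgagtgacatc
ENSG00000237301, chr1:15930167-15930227, minus strand: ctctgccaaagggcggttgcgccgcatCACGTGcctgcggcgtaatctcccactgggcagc
MRPL45P2, chr17:45569941-45570001, minus strand: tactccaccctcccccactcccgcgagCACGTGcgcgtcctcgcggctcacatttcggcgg
MIRLET7IHG, chr12:62996542-62996602, plus strand: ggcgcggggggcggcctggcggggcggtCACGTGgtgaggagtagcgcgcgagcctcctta
LINC01703, chr1:226271202-226271262, plus strand: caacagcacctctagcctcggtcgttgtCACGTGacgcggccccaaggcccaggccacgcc
ENSG00000270792, chr20:10652200-10652260, plus strand: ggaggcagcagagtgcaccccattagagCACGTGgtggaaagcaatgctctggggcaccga
PDCD4-AS1, chr10:112632398-112632458, minus strand: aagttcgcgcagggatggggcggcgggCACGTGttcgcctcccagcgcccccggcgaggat
LINC-PINT, chr7:130792913-130792973, minus strand: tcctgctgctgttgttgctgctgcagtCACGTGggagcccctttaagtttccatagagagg

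Most of these promoters lack the palindrome, and 4 strong ones among the host genes are shown over 200 bases at the summit for that reason. Capitals mark any of the 4 E-box forms searched, on either strand: besides the palindrome, the E'-box form was CACGTT, a variant with a further CG step was CACGCG, and another variant was CATGTG. Each of the 4 shown holds a variant, which is not typical: over all 687 promoters any form was at 46.6%. The strong promoters of PBX3-DT and LINC02606 held no form at the summit.
SNHG17, chr20:37063683-37063882, minus strand: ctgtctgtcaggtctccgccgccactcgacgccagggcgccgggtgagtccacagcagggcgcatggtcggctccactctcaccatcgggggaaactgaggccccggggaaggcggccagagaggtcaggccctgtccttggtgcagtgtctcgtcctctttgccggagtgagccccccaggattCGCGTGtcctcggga
SNHG16, chr17:74553724-74553923, plus strand: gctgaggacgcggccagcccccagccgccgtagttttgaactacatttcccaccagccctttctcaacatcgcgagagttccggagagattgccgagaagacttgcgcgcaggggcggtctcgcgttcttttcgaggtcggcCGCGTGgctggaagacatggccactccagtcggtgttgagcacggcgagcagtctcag
DLEU1, chr13:50656208-50656407, plus strand: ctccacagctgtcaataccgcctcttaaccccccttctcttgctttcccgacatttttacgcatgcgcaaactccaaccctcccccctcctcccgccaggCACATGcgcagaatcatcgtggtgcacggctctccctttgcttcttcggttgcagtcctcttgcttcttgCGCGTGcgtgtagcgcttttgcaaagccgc
MIR17HG, chr13:92001368-92001567, plus strand: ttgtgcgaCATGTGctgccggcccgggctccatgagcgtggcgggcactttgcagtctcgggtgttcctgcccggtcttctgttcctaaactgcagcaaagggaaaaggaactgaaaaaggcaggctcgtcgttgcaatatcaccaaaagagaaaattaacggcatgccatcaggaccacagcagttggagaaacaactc

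MAX enrichment at the noncoding promoters lay between that at coding promoters and that away from any TSS. Enrichment is the fold enrichment of the peak caller, the height of the stacked 300 bp fragments at the summit divided by the local background from the input. Over the 687 promoters its median was 9.52 (9.35 to 10.01), with the middle of the values between 7.69 and 12.2 and the extremes at 2.35 and 42.09. At the 6229 MAX-only peaks of coding promoters the median was 10.15 (10.13 to 10.15), and at the 6014 MAX-only peaks within 300 bp of no TSS it was 9.14 (9.07 to 9.23). The intervals of the noncoding and coding promoters do not overlap, although the medians differ by less than the distance between the quartiles. Within CpG-rich and within CpG-poor promoters, described below, the intervals of these sets do overlap. A promoter at the median rested on 18 stacked fragments, and the weakest on 9.

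**Figure D1:**
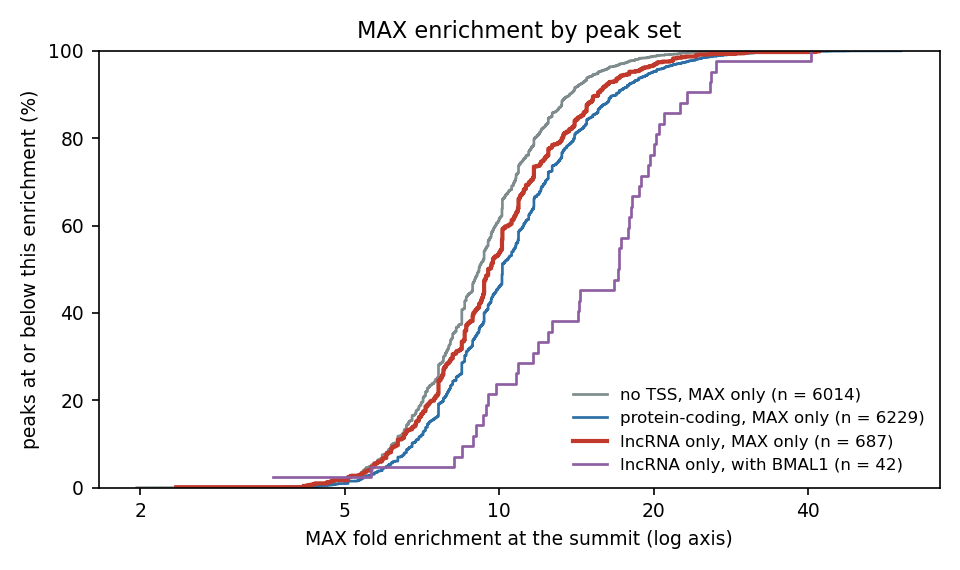
Cumulative share of MAX peaks (y axis, %) at or below a fold enrichment (x axis, log scale) for 4 sets of peaks, 1 line per set. The line of the 687 noncoding promoters runs between those of coding promoters and of peaks at no TSS, with medians of 9.52, 10.15 and 9.14, and the 42 noncoding promoters with a BMAL1 peak lie to the right with a median of 17.09.

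High enrichment was rare. A fold enrichment of 20 or more was reached by 23 noncoding promoters (3.35%, 2.24% to 4.97%), by 4.80% of coding promoters (4.30% to 5.36%) and by 1.28% of peaks at no TSS (1.03% to 1.60%). The peaks were also somewhat shorter than at coding promoters, with median lengths of 450 and 490 bp, and 47 were at the 300 bp minimum.

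The strongest promoters were those of SNHG15 and EBLN3P. SNHG15, a snoRNA host gene, had a fold enrichment of 42.09 from 54 fragments (counting interval of the fold 31.6 to 54.9), in a peak at chr7:45025599-45026640 whose summit lay 181 bp downstream of a TSS and 40 bp from CACGTG. EBLN3P, a pseudogene that the annotation types as lncRNA, had a fold of 41.37 (33.2 to 51.0) from 88 fragments, the tallest summit of the 10 most enriched promoters, with CACGTG 30 bp away. The intervals of both overlap, so counting does not order them.

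The next 8 promoters by enrichment lay between 23.08 and 30.46. PBX3-DT, which starts 283 bp upstream of the summit and runs head to head with PBX3, a homeobox cofactor, had a fold of 30.46 (22.5 to 40.4). SNHG17, another snoRNA host, had 30.04 (23.5 to 37.9). ENSG00000288885, which starts inside SLC19A1, the folate carrier gene, on the other strand, had 28.84 (20.3 to 39.8) and CACGTG 4 bp from its summit. These intervals overlap with each other and with those of the strongest pair.

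The remaining members of this group were mostly uncharacterised. ENSG00000288728, 337 bp from a TSS of the chromatin protein gene HMGB2, had a fold of 25.72 (17.7 to 36.1). LINC01237 had 24.37, LINC03052 24.18, ENSG00000278743 24.16 and ENSG00000285887 23.08. Of the 10 most enriched promoters, 3 held CACGTG within 100 bp of the summit. By the peak caller's -log10 p the leading promoters were EBLN3P (107.96), SNHG17 (77.9), SNHG15 (67.7) and PBX3-DT (53.78), followed by ENSG00000287114 (44.38), whose 54 fragments stood over a higher input and gave a fold of 15.23.

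Host genes of small RNAs were marked more often than other lncRNA genes. Of 15865 lncRNA genes that have a TSS more than 600 bp from every coding TSS, 667 carried one of these MAX-only peaks, 4.2% (3.90% to 4.53%), whereas 32.6% of protein-coding genes carried a MAX-only peak at a TSS. Among lncRNA genes named as small RNA hosts the share was 21 of 100 (21.0%, 14.2% to 30.0%), and among those that hold an annotated snoRNA or scaRNA on their strand 17 of 98 (17.3%, 11.1% to 26.0%). Genes that hold a miRNA were marked in 29 of 294 cases (9.86%, 6.96% to 13.8%), and genes with neither in 4.03% (3.73% to 4.35%). The lifted annotation places no miRNA inside some known hosts, MIR17HG among them. It also places no snoRNA or scaRNA inside SNHG15, SNHG6, SNHG7 and SNHG8. The counts by content are therefore incomplete for both kinds of host.

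By name, LINC genes were marked in 5.73% of cases (127 of 2215), genes named as antisense in 6.65% (88 of 1324) and genes named as divergent in 6.63% (13 of 196). Genes with other symbols were marked in 10.9% (71 of 650), genes that carry only an identifier in 3.07% (345 of 11242), and genes named as intronic or overlapping in 1.45% (2 of 138).

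The SNHG genes, named for the snoRNAs in their introns, were marked in 12 of 23 cases where a TSS lay away from coding genes (52.2%, 33.0% to 70.8%). Of 29 genes, the SNHG genes and GAS5, 13 carried a peak of this kind, 6 had their MAX peak within 300 bp of a coding TSS, 3 (GAS5, SNHG29 and SNHG5) shared theirs with BMAL1, and 7 had no listed MAX peak. Behind SNHG15 and SNHG17 came SNHG16 with a fold of 20.04 (13.2 to 29.2), its summit 6 bp downstream of a TSS. SNHG26 had 15.74, SNHG8 14.81 and SNHG7 14.43, and the others ranged from 8.54 at SNHG11 to 12.8 at SNHG25. In 10 of the 13 the strongest peak was above the median of all 687 promoters, and in 5 it held CACGTG at the summit (SNHG15, SNHG25, SNHG6, SNHG32 and SNHG30).

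DANCR and EPB41L4A-AS1 also carry snoRNAs. DANCR had peaks with folds of 12.06, with CACGTG 38 bp from the summit, and 10.91, the latter nearest to the TSS of its neighbour LINC01618. EPB41L4A-AS1 had a fold of 11.68. Over all 22 peaks at genes that hold an annotated snoRNA or scaRNA, 6 held CACGTG (27.3%, 13.2% to 48.2%). The peaks of SNHG15, SNHG6, SNHG7 and SNHG8 are not among the 22. Of these genes, SNHG15 and SNHG6 held CACGTG at the summit.

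Among miRNA hosts, the strongest promoters were those of MIR762HG and MIRLET7IHG. MIR762HG had a fold of 21.76 (15.2 to 30.1), centred 43 bp before its TSS. MIRLET7IHG, host of a member of the let-7 family of growth-restraining miRNAs, had 21.54 (14.3 to 31.1) from 28 fragments, and its E-box lay 25 bp from the summit. MIR17HG, host of the oncogenic miR-17 cluster, had peaks with folds of 17.93 (11.6 to 26.5) and 14.93 (9.24 to 22.8), neither with CACGTG. The DLEU1 and DLEU2 pair, the second of which hosts the tumour-suppressive miR-15 and miR-16, shared a start region with a fold of 19.53 (13.2 to 27.9) and a summit on a TSS.

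Other miRNA hosts ranged widely. Of those outside the list of known genes, and named after their values were seen, DUSP5-DT had a fold of 18.8 and GNG12-AS1 of 17.93, both hosts of a miRNA with a provisional name. Among the listed ones MIR3142HG had a fold of 12.47, MIR22HG 9.44, MIR29B2CHG 8.94 and 6.16, MIRLET7BHG 9.35 and 8.57, and MIR646HG 5.92. PVT1, the host gene downstream of MYC, had peaks with folds of 11.42, 5.42 and 5.33, and CACGTG was at the summit of the first, 47 bp away. Of the 37 peaks at genes that hold an annotated miRNA, 14 held CACGTG (37.8%, 24.1% to 53.9%), against 105 of the other 650 (16.2%, 13.5% to 19.2%), a difference of 21.7 percentage points (7.58 to 38.0). Leaving out miRNAs with provisional names gave 8 of 23 (34.8%, 18.8% to 55.1%), a difference of 18.6 points (2.37 to 39.1). The peaks at MIR17HG, MIR22HG, MIR29B2CHG, MIR4458HG and MIR4453HG, named as hosts but without an annotated miRNA, were counted among the other 650. None of them held CACGTG at the summit, so counting them as hosts would make both differences smaller. The intervals with these peaks counted as hosts were not computed. The difference of 18.6 points, whose lower limit was only 2.37, may then no longer be resolved. It is therefore not claimed to hold once these named hosts are included.

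**Figure D2:**
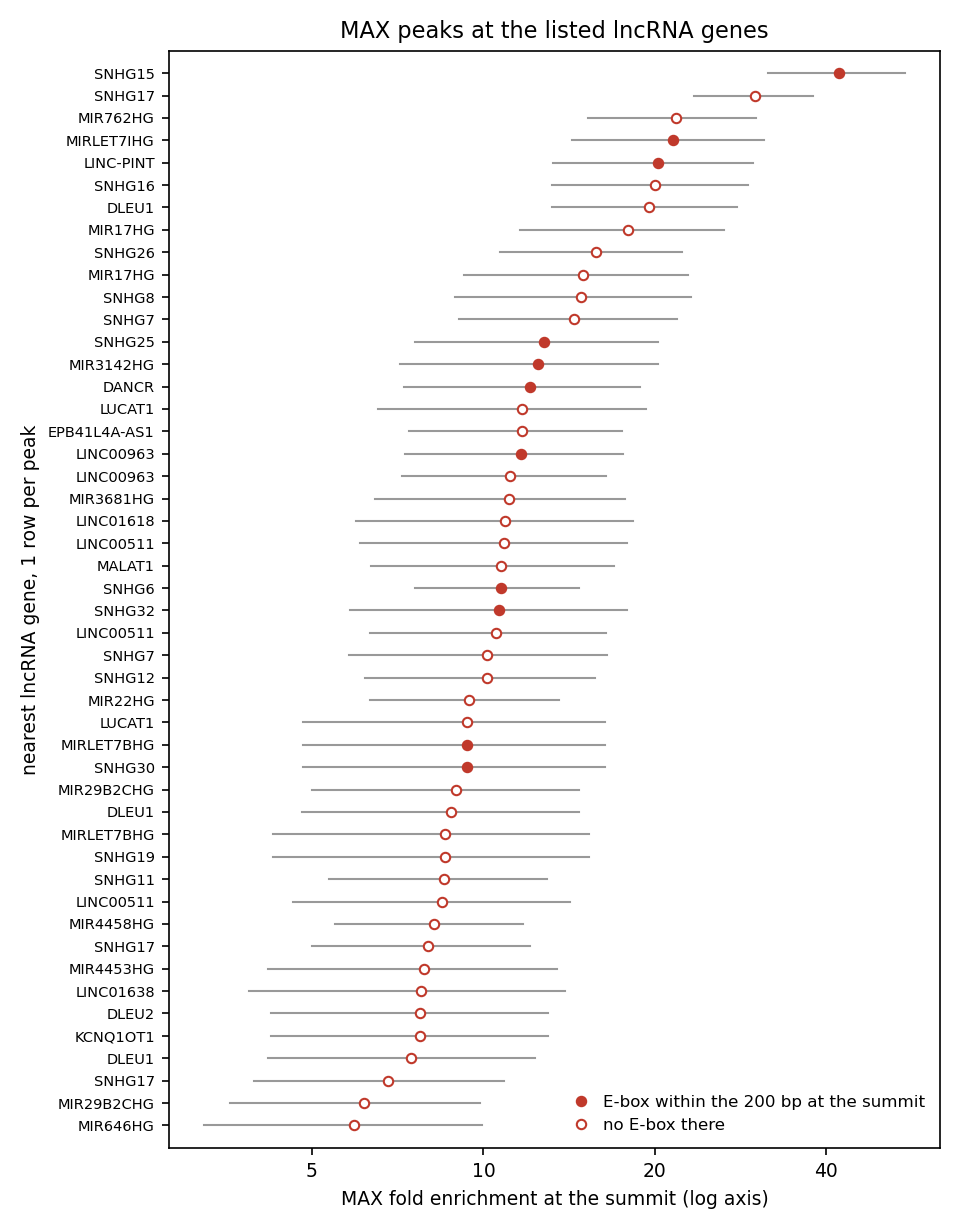
MAX fold enrichment (x axis, log scale) of the 48 peaks at lncRNA genes of the list of host genes and known lncRNAs, 1 row per peak, with grey bars for the 95% Poisson interval of the fragment count over a fixed background. Filled points hold CACGTG within the 200 bp at the summit. Values run from 5.92 at MIR646HG to 42.09 at SNHG15, with wide overlap of the bars below the leading rows.

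The list of host genes and known lncRNAs had 153 genes in the annotation, and 37 of them were at one of these promoters, with 48 peaks. Of all lncRNA genes away from coding TSSs, 4.2% carried one. The 153 were not limited to such genes, so the shares are not on the same base. The list was chosen with earlier results known and includes the small RNA hosts. The median fold of the 48 peaks was 10.7, and 28 of them were above the median of all 687 promoters. CACGTG was at 11 of the 48, and at 119 of all 687 (17.3%). No interval was computed for the listed peaks, so no difference is claimed. LINC-PINT, a p53-linked growth suppressor, had a fold of 20.27 (13.2 to 29.7) with CACGTG 93 bp from the summit. MALAT1, the abundant nuclear speckle RNA, had 10.73 with no E-box at the summit. LUCAT1, a stress-induced RNA, had peaks of 11.69 and 9.35, LINC00963 of 11.63 and 11.13, and LINC00511 of 10.85, 10.51 and 8.46. KCNQ1OT1, the imprinted antisense RNA, was among the lowest at 7.74.

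Several genes had more than 1 such promoter peak. Of 648 genes that were nearest to a peak, 35 were nearest to 2 or more, with 74 peaks in all and at most 3 at a gene. SNHG17 illustrates their unequal strength: its main peak at 30.04 was accompanied by peaks of 7.98 and 6.79, the first of them directly downstream of the main peak. At DLEU1 the shared start at 19.53 was accompanied by peaks of 8.77 and 7.47 at later start sites. At MIR17HG and LINC00963 the paired peaks were of like strength.

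CACGTG was present at the summit of 119 noncoding promoters, 17.3% (14.7% to 20.3%), below the 21.2% of all listed MAX peaks, which include those shared with BMAL1. At MAX-only coding promoters the share was 18.0%, a difference of noncoding minus coding of -0.71 percentage points (-3.53 to 2.44), and at peaks of no TSS it was 19.9%, a difference of -2.62 points (-5.45 to 0.55). Both intervals hold 0, so over all peaks of each set no difference in E-box share was resolved. CpG-poor peaks taken alone are compared below. Windows 2 kb to either side of the noncoding summits held CACGTG in 2.11% of cases, which is a ratio of 8.21, and of 36283 TSSs of lncRNA genes away from coding genes and without a MAX peak 3.35% held it in their 200 bp.

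The palindromes lay close to the summit. Counted in 50 bp bins there were 5.39 and 5.82 CACGTG per 100 promoters in the bins next to the summit and at most 1.31 in the bins more than 250 bp away. In 41 of the 119 promoters (34.5%) the nearest E-box of the peak was within 25 bp of the summit, at ENSG00000237301 2 bp and at MRPL45P2 7 bp away. Over whole peaks, 197 (28.7%) held the palindrome and 22 held it more than once. The base before CACGTG, read on both strands of the 126 palindromes at noncoding summits, was C on 41.3% of sides, G on 27.8% and A on 11.9%, and T on 48 of 252 sides. At coding promoters T stood on 18.5% of sides and at peaks of no TSS on 9.62%.

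**Figure D3:**
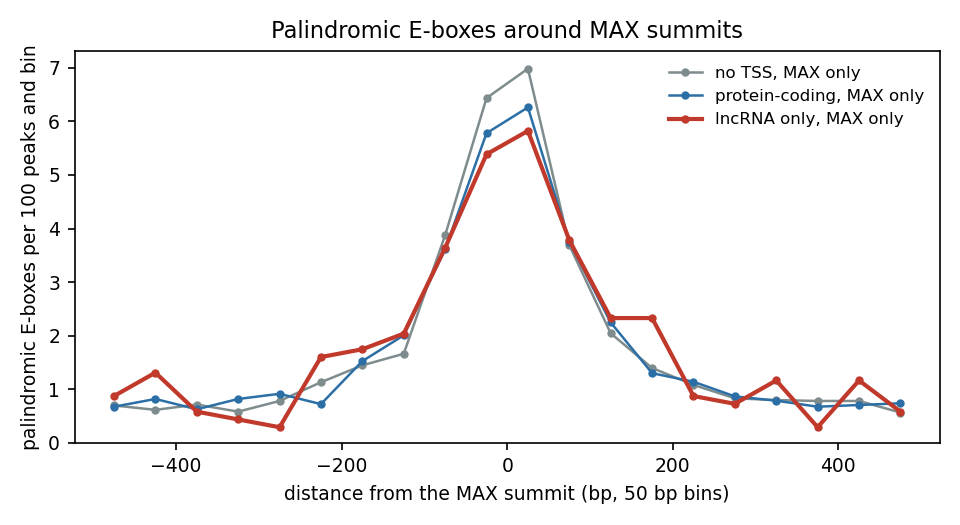
Number of CACGTG per 100 peaks (y axis) in 50 bp bins by distance from the MAX summit (x axis, bp), for noncoding promoters, coding promoters and peaks at no TSS. The 3 lines rise together over the summit, to 5.39 and 5.82 per 100 noncoding promoters in the central bins.

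Promoters with the palindrome were more enriched. Their median fold was 11.42 (10.15 to 12.47, 119 promoters), against 9.35 (9.23 to 9.67, 568 promoters) without it. With the promoters ranked by fold enrichment and cut into 4 groups of like size, the share with CACGTG was 11.6%, 12.8%, 15.2% and 29.7% (23.3% to 36.9%), so that most of the increase lay in the top group, at folds of 12.22 and above. Coding promoters cut in the same way had shares of 8.92%, 12.7%, 18.1% and 32.4%.

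Of the other E-box forms, CACGCG and CATGTG differed in frequency between the sets, and the E'-box CACGTT was not resolved from coding promoters (difference 0.097 points, -1.64 to 2.28) or from peaks of no TSS (1.38 points, -0.34 to 3.55). CACGCG was at 17.0% of noncoding summits, 10.6 times its share in the flanks, and was 10.5 percentage points more frequent (7.82 to 13.6) than at peaks of no TSS, but not resolved from the 19.2% of coding promoters (-4.96 to 0.99). CATGTG, at 14.1% (11.7% to 16.9%), was 6.0 points more frequent (3.49 to 8.87) than at coding promoters and less frequent than at no TSS (difference -11.1 points, -13.7 to -8.08). It was near its background, at 1.39 times its share of 10.2% in the flanks. At lncRNA TSSs without a MAX peak CATGTG stood at 12.9%, within the interval of the noncoding promoters. The E'-box was at 6.55%, which is 1.67 times its share in the flanks. Any of the 4 forms was present at 320 noncoding promoters (46.6%, 42.9% to 50.3%), against 44.5% of coding promoters, 50.1% of peaks at no TSS and 49.0% of all listed MAX peaks.

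For AP-1, SP/KLF and ETS letters the noncoding promoters lay between the other sets. The AP-1 motif TGANTCA, bound by FOS and JUN dimers, was at 14.8% of noncoding summits, 10.1 points above coding promoters (7.55 to 13.0) and below peaks of no TSS (-13.0 points, -15.7 to -9.92). The GGGCGG box of SP and KLF factors was at 37.3%, below coding promoters (-14.4 points, -18.2 to -10.5) and 21.6 points above peaks of no TSS (17.9 to 25.3). The ETS letters CCGGAA, at 13.0%, were below coding promoters (-8.14 points, -10.7 to -5.25) and 6.92 points above peaks of no TSS (4.53 to 9.70). CCAAT, the NFY box, was at 18.8%, below coding promoters (-4.55 points, -7.49 to -1.29) and not resolved from peaks of no TSS (0.95 points, -1.96 to 4.18). Nor were the letters of YY1 (AAGATGG, 0.097 points, -0.92 to 1.59), of the cAMP response element (TGACGTCA, 0.28 points, -0.11 to 1.19) or TATAAA (-0.94 points, -2.17 to 0.75) resolved from peaks of no TSS, and the TEAD letters GGAATG were not resolved from coding promoters (2.17 points, -0.058 to 4.79). TATAAA was rare at 3.35%, below its share of 11.3% in the flanks. Matching letters are a description and do not show that a factor was bound.

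**Figure D4:**
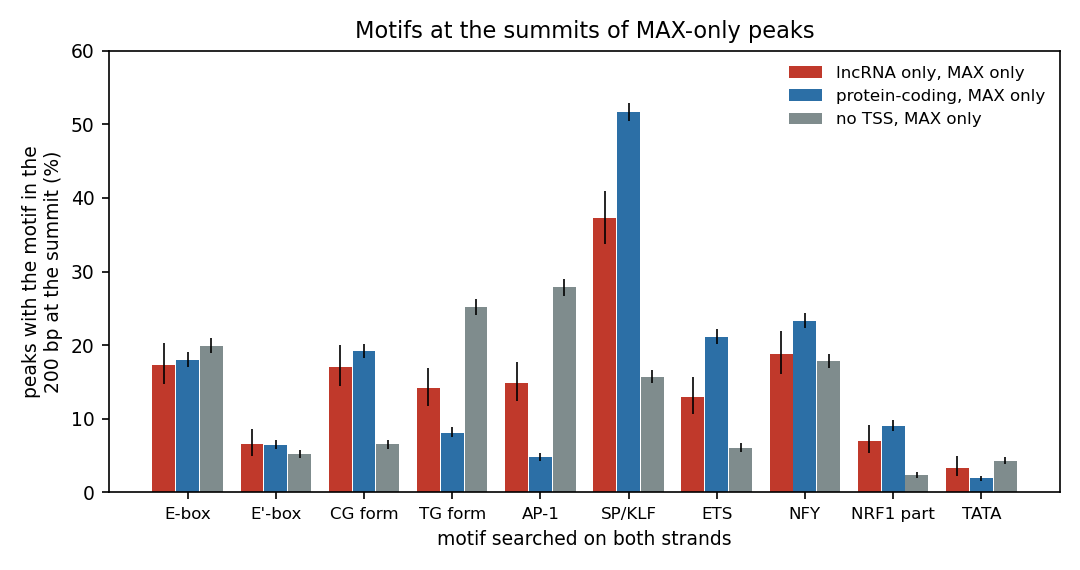
Share of MAX-only peaks (y axis, %) with each motif in the 200 bp at the summit, by motif (x axis) and set, with Wilson 95% intervals; CG form and TG form stand for the 2 E-box variants that end in those letters. Noncoding promoters have 17.3% at the palindromic E-box, where no difference from the other sets was resolved, and lie between them at AP-1, with 14.8%, and at the SP/KLF box, with 37.3%.

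The noncoding promoters were of mixed base composition. Their median GC content in the 200 bp at the summit was 62.5% (61.5 to 63.0), against 65.5% at coding promoters and 55.0% at no TSS. The CpG ratio, the number of CG steps over that expected from the C and G content, had medians of 0.664, 0.823 and 0.322. Counting windows with a ratio of at least 0.6 and a GC content of at least 50% as CpG-rich, 368 noncoding promoters were CpG-rich (53.6%, 49.8% to 57.3%), compared with 80.2% of coding promoters and 15.7% of peaks at no TSS.

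The CpG-rich and CpG-poor noncoding promoters differed in some motifs, while for the palindrome no difference was resolved. CACGTG was at 17.4% of the 368 CpG-rich and 17.2% of the 319 CpG-poor promoters (difference 0.15 points, -5.59 to 5.78). AP-1 letters were at 4.08% of CpG-rich promoters and 27.3% of CpG-poor ones (difference -23.2 points, -28.6 to -17.9). CACGCG was 20.1 points more frequent in CpG-rich promoters (14.8 to 25.3), and CATGTG was less frequent there (-9.92 points, -15.3 to -4.68). No difference was resolved for CACGTT (0.52 points, -3.34 to 4.26), CCAAT (-0.64 points, -6.56 to 5.18), TATAAA (-1.36 points, -4.39 to 1.42), the letters TGCGCA of the NRF1 motif (3.68 points, -0.19 to 7.51), or the letters given for YY1 and the cAMP response element. The split itself counts CG steps, which CACGCG holds and CATGTG lacks. Among CpG-poor peaks the noncoding promoters exceeded the coding ones in AP-1 letters, at 27.3% (22.7% to 32.4%) and 14.2% (12.4% to 16.3%). CpG-poor peaks at no TSS had AP-1 letters at 31.4% (30.1% to 32.7%), an interval that overlaps that of the noncoding promoters. The palindrome was at 17.2% (13.5% to 21.8%) of CpG-poor noncoding and 23.8% (21.5% to 26.3%) of CpG-poor coding promoters, with intervals that barely overlap. The interval of this difference was not computed. A difference can be resolved where single intervals overlap slightly, so this lower share is not called unresolved. In CpG-rich promoters the palindrome was at 17.4% and 16.6%.

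Enrichment was somewhat higher in the CpG-rich group. CpG-rich noncoding promoters had a median fold of 10.13 (9.52 to 10.41) and CpG-poor ones of 9.23 (8.88 to 9.52). Coding promoters had 10.47 (10.22 to 10.66) and 9.35 (9.14 to 9.52), so within each class the intervals of noncoding and coding promoters overlap. Of the 23 noncoding promoters with a fold of 20 or more, 20 were CpG-rich. The summit was a median of 110 bp (83 to 127) from the TSS in CpG-rich and 150 bp (125 to 180) in CpG-poor noncoding promoters.

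The share of lncRNA genes with one of these peaks rose with the CpG ratio of their most CpG-rich start site, measured over 600 bp. It was 0.71% below a ratio of 0.2, 1.68% from 0.2, 4.57% from 0.4, 14.7% from 0.6 and 24.9% (22.1% to 27.8%) from 0.8. A gene with many annotated start sites has more chances both to show a high ratio and to lie near a peak. Among genes with a ratio of at least 0.6, snoRNA hosts were marked in 15 of 35 cases (42.9%, 28.0% to 59.1%), miRNA hosts in 25 of 108 (23.1%, 16.2% to 31.9%) and genes with neither in 18.1% (16.5% to 19.8%). Hosts were again taken by annotated content, which left out SNHG15, SNHG6, SNHG7 and SNHG8. Within CpG-rich start sites the interval of snoRNA hosts lay above that of genes with neither, and the interval of miRNA hosts overlapped it. Below a ratio of 0.6 the intervals overlapped for all, with 2 of 63 snoRNA hosts (3.17%, 0.87% to 10.9%), 4 of 186 miRNA hosts (2.15%, 0.84% to 5.40%) and 1.80% of genes with neither.

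**Figure D5:**
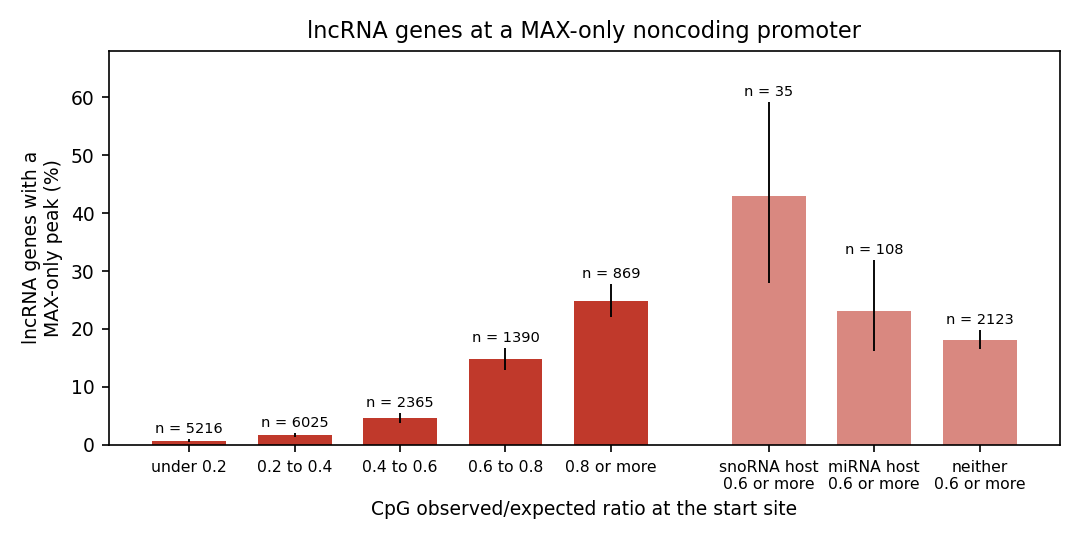
Share of lncRNA genes with a MAX-only noncoding promoter peak (y axis, %, Wilson 95% intervals, number of genes above each bar) by CpG ratio of the start site, and on the right by content among genes with a ratio of at least 0.6. The share rises from 0.71% to 24.9% with the ratio, and reaches 42.9% at genes with an annotated snoRNA or scaRNA.

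The peaks lay at start sites of 723 lncRNA genes, with 81 peaks near those of more than 1 gene, and 57 (8.30%) were also near a TSS of another gene type such as a pseudogene. Summits lay near the start sites, on either side. The median distance from summit to TSS was 125 bp (115 to 144), with 286 summits (41.6%) within 100 bp, and 498 peaks (72.5%) held a lncRNA TSS. At coding promoters the summits were closer, with a median of 89 bp (86 to 94) to the nearest coding TSS and 53.2% within 100 bp. Upstream of the TSS lay 386 summits (56.2%, 52.5% to 59.9%), and 296 lay downstream. The quartiles of the summit position relative to the TSS were -140 and 111.5 bp. The upstream peak of MIR17HG and the peak of MALAT1 had summits 404 and 319 bp before their TSS.

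Most of the promoters were apart from coding genes, which the rule fixes in part, since it left out peaks within 300 bp of a coding TSS. The summit lay between coding genes in 515 cases (75.0%), inside a coding gene on the opposite strand of the lncRNA in 150 (21.8%), and inside one on the same strand in 18. The nearest coding TSS was over 300 and up to 1000 bp from the peak at 126 promoters (18.3%), and more than 50000 bp away at 172. Of the 126 near ones, 66 ran head to head with the coding gene (52.4%, 43.7% to 60.9%), 52 faced it and 8 ran on its strand, while among the other 561 the same strand was the most frequent arrangement (231).

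Values near to and far from a coding TSS overlapped. The median fold was 9.43 (9.14 to 9.80) within 1000 bp of a coding TSS and 9.67 (9.35 to 10.13) beyond, and CACGTG was at 21.4% (15.2% to 29.4%) and 16.4% (13.6% to 19.7%). The leading promoters near a coding gene were PBX3-DT, ENSG00000288728 beside HMGB2, and PDCD4-AS1 at 20.27, which starts inside PDCD4, a translation inhibitor gene, with the peak 358 bp from the PDCD4 TSS. Strong promoters also occurred far from any coding TSS, with ENSG00000278743 at 24.16, ENSG00000285887 at 23.08, ENSG00000248884 at 22.21, LINC02606 at 21.83 and DLEU1 at 19.53, all more than 50000 bp away and none with CACGTG at the summit.

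The longest peaks were not the strongest. LINC02018 had a peak of 1721 bp with a fold of 12.47, LINC00662 13.71, LINC00324 8.74, ENSG00000289919 14.81 and C1orf220 11.18. None of these 5 had CACGTG within 100 bp of the summit.

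The noncoding promoters that shared bases with BMAL1 were few and are given only for contrast. There were 42, which is 5.76% (4.29% to 7.70%) of the 729 MAX peaks at lncRNA TSSs away from coding genes, close to the 4.26% at coding TSSs and the 5.02% at no TSS. Their median MAX fold was 17.09 (12.47 to 18.13), and 29 of 42 held CACGTG at the summit (69.0%, 54.0% to 80.9%), a difference of MAX-only minus shared promoters of -51.7 percentage points (-63.9 to -36.4). The leading ones were NRSN2-AS1 at 40.53, ADIRF-AS1 at 26.49 and PROSER2-AS1 at 25.91. Only 5 MAX-only noncoding promoters had a BMAL1 peak within 1 kb without sharing a base, HIF1A-AS1 and SBF2-AS1 among them, with folds from 5.8 to 8.12 and no CACGTG at the summit.

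The limits of the rule fell within peaks of ordinary strength. Promoters whose nearest lncRNA TSS was over 250 and up to 300 bp from the peak had a median fold of 9.21 (20 promoters), and MAX-only peaks just beyond, up to 350 bp away, had 8.88 (25 peaks). At the other limit, 26 promoters with a coding TSS over 300 and up to 350 bp away had a median of 9.35, and 30 peaks left out for one over 250 and up to 300 bp away had 8.81. The weakest members by -log10 p were ENSG00000255326 (5.17, fold 4.35), ENSG00000288913 (5.2, fold 5.71) and LINC00390 (5.88, fold 4.71). The rule also left out 1191 of 1878 MAX-only peaks at lncRNA TSSs (63.4%) because they touched a coding promoter as well.

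In 138 of the promoters (20.1%) the background was at the genome-wide level of 1.28 fragments, so that their fold is a rescaled fragment count. In 4 the input background was 5 fragments or more. ROCK1P1 had 137 fragments over a background of 58.3, which gave the lowest fold of all, 2.35, and LINC00910 had 4.16. Promoters in duplicated sequence, such as those of the pseudogenes MRPL45P2 and ROCK1P1, can share reads with their copies, so their counts are uncertain.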

How the data were processed

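Peaks of 1 MAX and 1 BMAL1 chromatin immunoprecipitation library of MDA-MB-231 cells were read from the authors' deposited lists, and the input had no file of its own. The authors aligned reads on hg19 with BWA 0.6.2 and called peaks per antibody with MACS2 2.0.9 against the input. The header p cutoff of 1e-05 is looser than the one in the methods, and all listed peaks were used. Duplicate tags were kept up to 1 per position for MAX and 2 for BMAL1. Per the file headers, the pileup signal is the height of fragments extended to 300 bp at the summit. The deposited fold enrichment is the ratio of pileup to local input background, and the authors' caller also wrote the -log10 p and -log10 q.

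TSSs were the 5' ends of all transcripts of GENCODE release 44 lifted to GRCh37, the assembly of hg19, whereas the study used another annotation. Letters were searched on both strands in 200 bp centred on the summit and in windows 2 kb to either side. Shares carry Wilson intervals, differences of shares Newcombe intervals and medians binomial order-statistic intervals, all at 95%. Fold intervals of single peaks are exact Poisson intervals of the pileup over a fixed background. All cover counting error only. Where no peak is listed, none passed the cutoff at this depth.

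The regions, gene lists and motifs were chosen with earlier results of these data known. Named were the 10 most enriched regions, the 10 with CACGTG, the 5 of largest -log10 p, the 5 longest, the 5 far from coding genes, the 3 of smallest -log10 p, those at listed host genes and known lncRNAs, genes with 2 or more, and those at the rule's limits. X inactivation genes were left out. The classes by CpG content, the E-box positions and the split of miRNA hosts by symbol were added after the data were seen, and so were the regions named beside a coding TSS or a BMAL1 peak, those with a high input background and the leading shared ones. Classification, motif and interval steps were tested on simulated data. Alternatives covered the p threshold, promoter window and rule, BMAL1 overlap, transcripts, motif window and measure of enrichment. Sequences were read with pysam 0.24.0, intervals computed with scipy 1.17.1, tables handled with pandas 2.3.3 and numpy 2.4.6 in Python 3.11.15, and plots drawn with matplotlib 3.10.9.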

Additional observations from a re-analysis of the deposited data

How the results depend on the processing

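Over 82 combinations of a result and an alternative, 58 kept the value within its interval (or, for the number of promoters, within 1.5 times) and 24 did not. Keeping peaks of -log10 p 12 or more in both lists left 366 promoters with a median fold of 12.04, CACGTG at 24.6%, CACGTG or the E'-box at 29.5%, and 2.37% of lncRNA genes marked. At -log10 p 8 or more the median fold was 10.13 and 3.84% of lncRNA genes were marked. Both selections keep taller peaks by construction. A promoter window of 1000 bp gave a median GC content of 61%, a median distance to the TSS of 200 bp, 19.3% of promoters inside a coding gene and 4.98% of lncRNA genes marked, and a window of 100 bp a distance of 99 bp. Requiring the summit in the window gave 96.0 bp and 29.4% inside a coding gene. Basic transcripts alone gave 149.5 bp and 29.8%. Leaving out peaks within 1000 bp of a coding TSS gave 112.0 bp and 17.8%. In a motif window of 100 bp CACGTG was at 10.3% and CACGTG or the E'-box at 13.4%, and over whole peaks at 28.7% and 40.03%. Over whole peaks the median GC content was 60.3%. The pileup over the genome-wide expectation had a median of 14.03, against 9.52 for the fold over local background. Counting BMAL1 peaks within 1000 bp as shared, requiring BMAL1 to cover at least 0.5 of the MAX peak, and keeping lncRNA genes of annotation level 1 or 2 left within its interval each result computed under them. The share of lncRNA genes marked was not computed under the BMAL1 alternatives, with the summit required in the window or without peaks within 1000 bp of a coding TSS. No paired analysis was possible because there was 1 library per antibody and no result comes from a test. The cause of these shifts was not tested beyond what each alternative's construction fixes.

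With 1 MAX library, no value has a check against the spread between cultures. A median peak of 18 fragments leaves a wide counting interval, so the order of single promoters below the leading ones is not resolved, and a promoter without a listed peak may carry MAX below the cutoff.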
